A study of Mus musculus with 12 samples.

Results

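The ETS family of transcription factors was followed through 10 genes, out of 23280 named features in the tables, in T cells sorted from mouse spleen: Ets1, Ets2, Fli1, Elf1, Elf2, Elf4, Gabpa, Etv3, Etv5 and Etv6. They were taken from the tables by symbol, with no threshold on a measured value, but the list was chosen with earlier results of these data known. ETS proteins share a winged helix-turn-helix DNA-binding domain that recognises a GGAA core, and several members can occupy the same sites. Ets1 and Fli1 act in lymphoid and haematopoietic development, Elf1, Elf2 and Elf4 form a subfamily expressed in lymphocytes, Gabpa binds promoters of housekeeping and mitochondrial genes, Etv5 is a PEA3-class activator linked to ERK signalling, and Etv3 and Etv6 are repressors. In T cells Ets1 is a major member of the family and Elf4 is known as a factor that restrains proliferation.

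Poly(A) RNA from 12 libraries was sequenced with a stranded kit, 3 libraries in each of 4 groups. The cells were CD4+CXCR5+PD-1+ T follicular helper (TFH) cells, which help B cells in germinal centres, or CD4+CXCR5-PD-1- Non-TFH cells, all from spleens of C57BL/6 mice. All mice carried Ets1 flox/flox alleles. WT mice had that genotype alone, and cKO mice (Ets1-CD4-cKO in the labels) were CD4-cre Ets1 flox/flox, in which Cre is driven by the Cd4 promoter and acts from the thymocyte stage onward, so that the Cre transgene itself was present in the cKO mice only. The sources used here give no age, sex or immunization of the mice. The labels do not tie libraries to separate mice, so a p-value here rests on the variation among libraries, part of which may be technical.

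Levels are FPKM, fragments normalised for transcript length and library depth, which can be compared between genes, after a scaling between libraries by their median ratio. Differences are on the log2 scale of FPKM + 1, which understates changes of genes at low levels. A gene was called higher or lower at an adjusted p under 0.05 in limma's test, fitted to all 12 libraries and adjusted over the 11112 features that reached 1 FPKM in 3 libraries or more. All 10 ETS genes passed that filter. With 3 libraries against 3, an exact two-sided permutation test of a single gene cannot go below 0.1.

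Estimated depth was 11.9 to 15.5 M fragments a library. The table of WT Non-TFH replicate 1 ended within the X chromosome and held no Elf4, so Elf4 has n = 2 in that group. Etv5 has n = 2 in WT TFH cells, because replicate 1 lists it joined to Tra2b. Cd3e, the CD3 epsilon chain, was at 215 to 668 FPKM in every library, and Pdcd1, which encodes PD-1, was at 316 FPKM or more in every TFH library and at 1.64 FPKM or less in every Non-TFH library. TFH libraries also held transcripts of other cell types. The summed level of 10 macrophage and monocyte markers, among them Csf1r and C1qb and without Lyz2, was 1113 to 2003 FPKM in WT TFH libraries, 180 to 240 in cKO TFH libraries, 27.0 to 38.5 in cKO Non-TFH libraries and 12.9 to 22.1 in WT Non-TFH libraries. Lyz2 went the other way in TFH cells, with 278 and 289 FPKM in WT replicates 1 and 3 (replicate 2 has no value) and 469 to 756 FPKM in cKO libraries, and was at 22.8 to 56.0 FPKM in WT and 86.8 to 112 FPKM in cKO Non-TFH libraries. Of all 11 markers, 10 were called lower and 1 (Lyz2) higher in cKO TFH cells, against 15.0% and 15.7% of all tested features. In cKO Non-TFH cells 5 were called higher and 0 lower, against 11.8% and 8.56% of all tested features. The sum of 7 B cell markers was 72.7 to 76.0 FPKM in WT TFH cells and 39.5 to 44.0 in cKO TFH cells, against 1.295 to 3.47 in the Non-TFH libraries. In those Non-TFH libraries the B cell factor Pax5 was under 0.1 FPKM in all 3 of the cKO group. The part of these other cells in the levels below was not tested. The Y-linked gene Ddx3y was at 40.4 to 44.5 FPKM in cKO Non-TFH libraries and was listed at 0 in all 3 cKO TFH libraries. In WT mice Ddx3y was at 68.0 and 51.7 FPKM in Non-TFH replicates 2 and 3 and at 33.4, 2.21 and 5.26 FPKM in TFH libraries. This mark of sex thus moved with the cell type in both genotypes, and with genotype in TFH cells. Xist, a transcript of female cells, was at 19.6, 0.324 and 0.0827 FPKM in cKO Non-TFH replicates 1 to 3. In WT TFH replicates 1 to 3 Xist was at 0, 15.9 and 13.6 FPKM. Marks of sex therefore also varied within groups, and some libraries held both Xist and Ddx3y. The part of sex was not tested.

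Ets1 was the most abundant of the 10 genes in all 12 libraries, and Elf1 was second in all 12. Ets1 lies on chromosome 9 at 32696042 to 32757820 (mm10) in 9 of 12 tables, 154589 bases beyond the end of Fli1 at 32422204 to 32541452. In WT Non-TFH cells Ets1 was above 98.7% of the tested features, and in WT TFH cells above 96.1%. The 10 genes summed to 686 to 716 FPKM in the 2 WT Non-TFH libraries that list all of them, and to 807 to 837 FPKM in the 3 cKO Non-TFH libraries. The sum was 401 to 404 FPKM in 2 WT TFH libraries and 444 to 488 FPKM in 3 cKO TFH libraries. Ets1 made up 57.9% ± 0.861 (SD, n = 2) of that sum in WT Non-TFH cells, 48.5% ± 1.28 (n = 3) in cKO Non-TFH cells, 51.8% ± 1.78 (n = 2) in WT TFH cells and 53.8% ± 3.46 (n = 3) in cKO TFH cells. A share of this kind does not depend on the scaling factor of a library, but it does change under quantile normalization. The mean Ets1 share was then 60.0% in WT and 49.2% in cKO Non-TFH cells. In TFH cells it was 49.1% in WT and 48.3% in cKO libraries, so the order of the genotypes turned there.

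**Figure D1:**
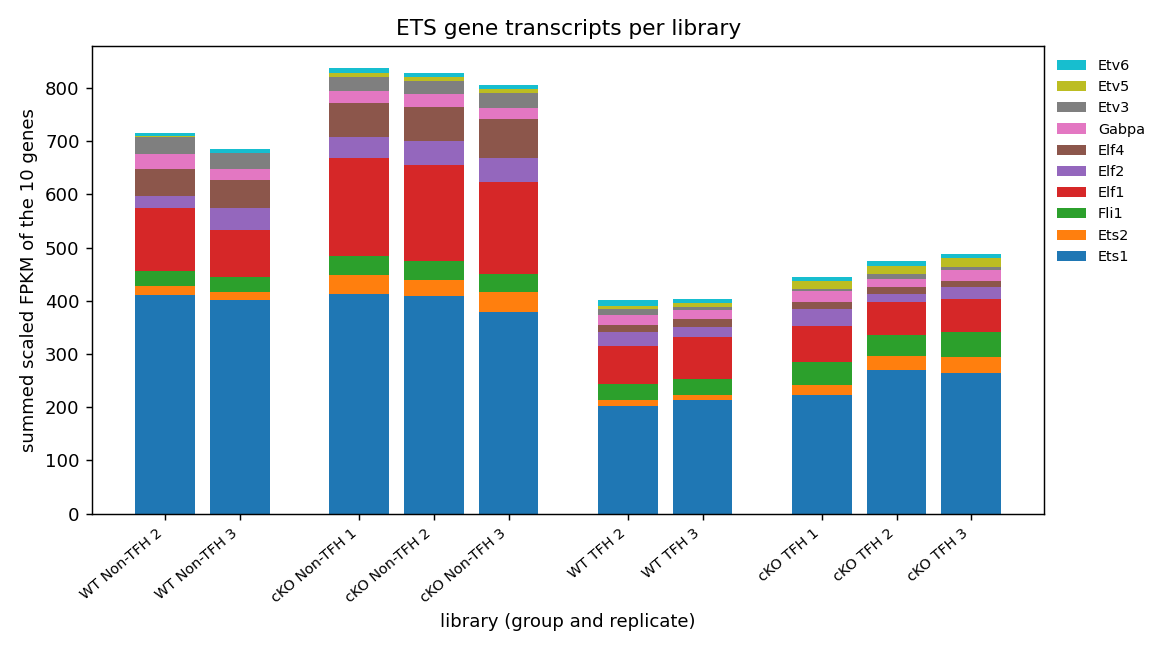
Stacked scaled FPKM of the 10 ETS genes in the 10 libraries that list all of them (y axis, FPKM; x axis, library). Ets1 is the largest block in every bar, and the bars of Non-TFH libraries (686 to 837 FPKM) are all taller than those of TFH libraries (401 to 488 FPKM).

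Behind Ets1 and Elf1 the order depended on the cell type. Next came Elf4 in every Non-TFH library that lists it and Fli1 in every TFH library. Etv5 was last in all Non-TFH libraries. In WT TFH cells the means of Gabpa (19.4 FPKM), Elf2 (17.4), Elf4 (11.9), Ets2 (9.92), Etv3 (9.80) and Etv6 (9.43) followed one another with ranges that overlapped between each pair of neighbours. In WT Non-TFH cells the ranges of neighbours in the order overlapped only for Elf2 (36.4 FPKM) and Etv3 (31.6 FPKM).

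**Figure D2:**
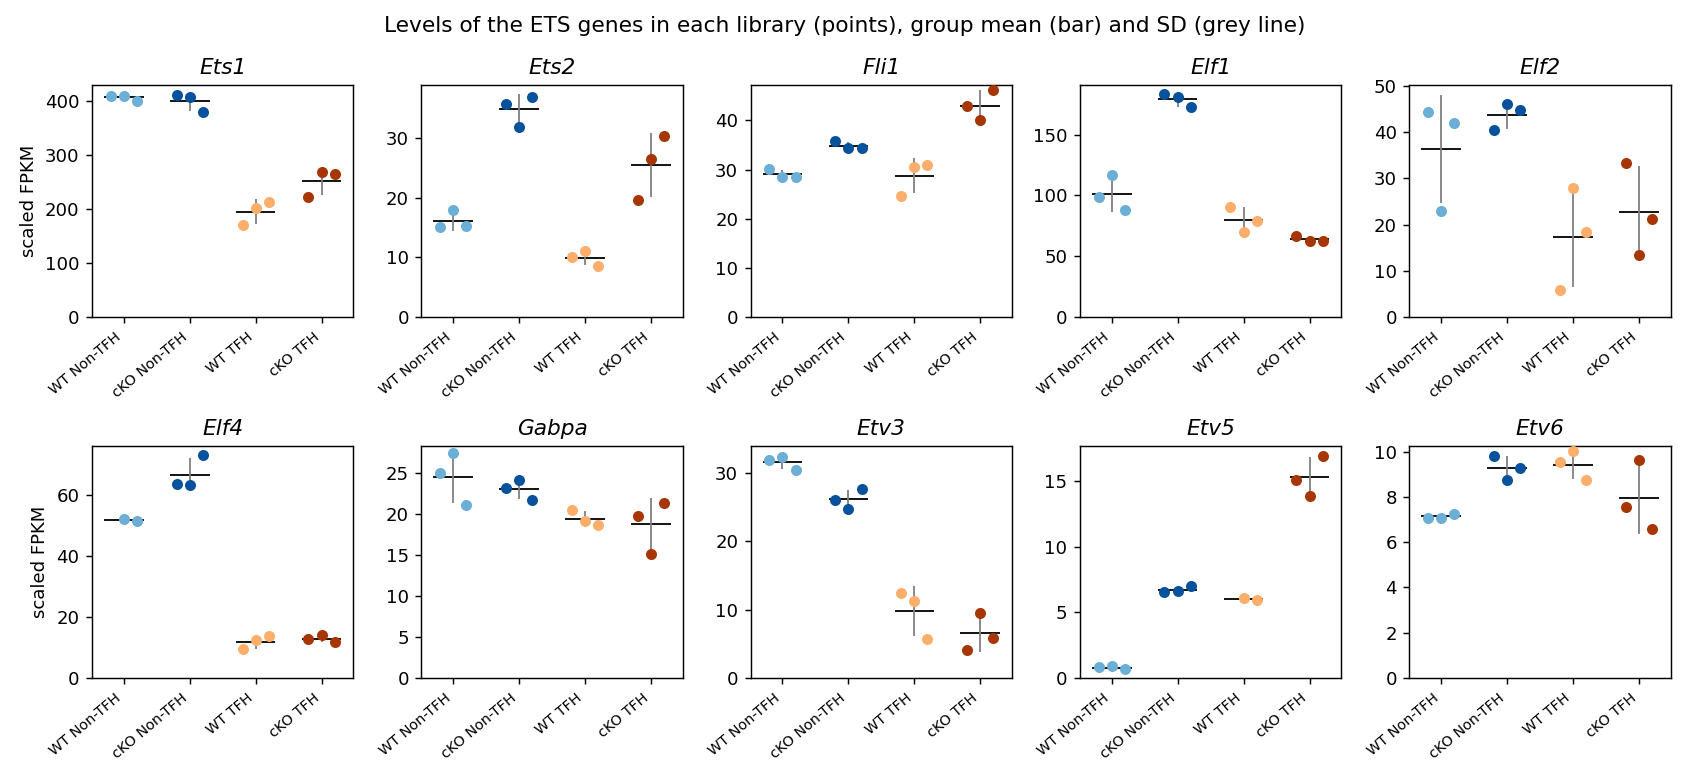
Scaled FPKM of each ETS gene (y axis from 0, one panel a gene) in the 4 groups on the x axis, with a point for each library, a bar for the mean and a grey line for the SD. Ets2 and Etv5 are higher in cKO than in WT libraries of both cell types, whereas Elf1 is higher in cKO Non-TFH libraries only.

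The targeted gene was present at high level in libraries of both genotypes. In WT Non-TFH cells Ets1 stood at 410, 410 and 401 FPKM, and in cKO Non-TFH cells at 413, 408 and 380 FPKM. Those ranges overlapped, and the log2 difference was -0.03 (SE 0.099, adjusted p = 0.91, exact permutation p = 0.8). In TFH cells Ets1 was at 170, 203 and 214 FPKM in the WT libraries and at 223, 270 and 265 FPKM in the libraries labelled cKO. The cKO TFH libraries were all above the WT TFH libraries, by 0.37 on the log2 scale (SE 0.099, adjusted p = 0.015, exact permutation p = 0.1), a ratio of 1.29. That call was lost in 5 of 23 alternatives: without cKO TFH replicate 2 (0.32, adjusted p = 0.055) or replicate 3 (0.33, adjusted p = 0.053), under quantile normalization (0.17, adjusted p = 0.21), with no filter on low values (adjusted p = 0.062) and with only the compared groups in the fit (adjusted p = 0.071). Over these alternatives the adjusted p ran from 0.0059 to 0.21. The Ets1 level summarises the whole gene, while Cre removes only the floxed segment, whose exons no source used here names. The level therefore checks neither the deletion nor the genotype labels, and the labels are taken as given in what follows. The difference between the Ets1 changes in TFH and Non-TFH cells did not pass (0.39, SE 0.140, adjusted p = 0.078), except without WT TFH replicate 3 (0.46, adjusted p = 0.049) or cKO TFH replicate 1 (0.48, adjusted p = 0.03).

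The first comparison asked how the other ETS genes stood in TFH cells of cKO mice. In these cells 4 of the 10 genes were higher (Ets1, Ets2, Fli1 and Etv5) and 0 were lower at the threshold, while 30.7% of all tested features were called, 15.7% higher and 15.0% lower. The median change of the 10 genes was 0.24, against 0.04 for all tested features. In Non-TFH cells 3 of 10 were higher (Ets2, Elf1 and Etv5) and 0 were lower, against 20.3% of all features called, 11.8% higher and 8.56% lower. The median change was 0.32, against 0.03 for all features. WT libraries are distinct in the 2 cell types, so the means compared share no library. Both tests take the spread of a gene from all 12 libraries, so they are not independent.

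**Figure D3:**
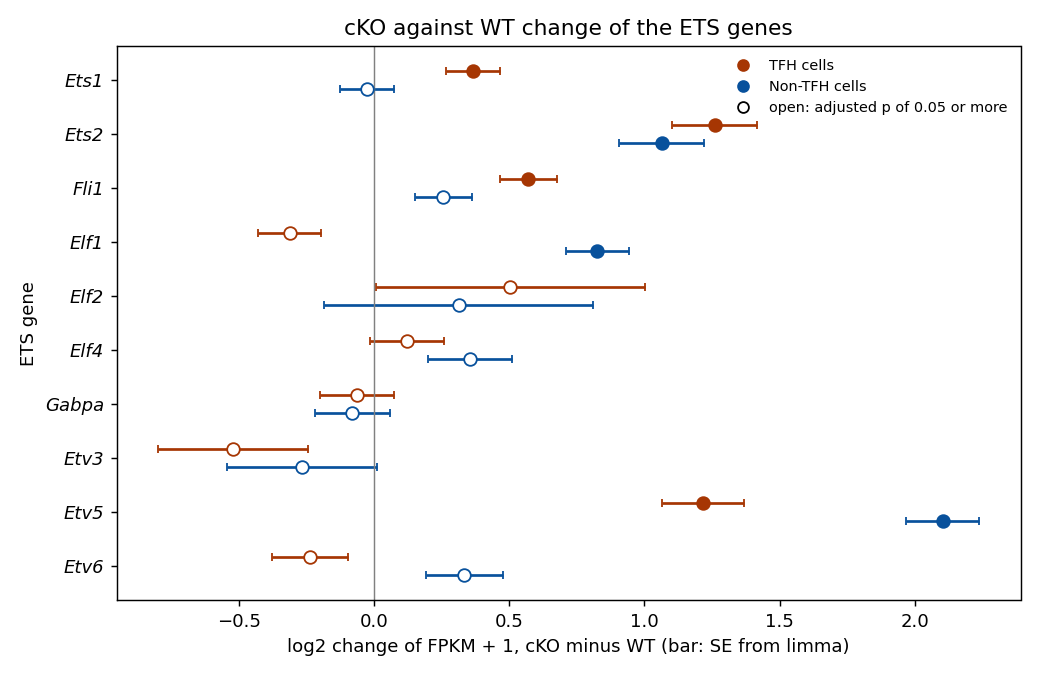
Change of each ETS gene between cKO and WT libraries (x axis, log2 of FPKM + 1; bars, SE from limma) in TFH and Non-TFH cells, with filled points for adjusted p under 0.05. Ets2 and Etv5 are filled in both cell types, Ets1 and Fli1 only for TFH cells and Elf1 only for Non-TFH cells.

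Ets2, a close relative of Ets1 that ERK phosphorylation activates, rose in both cell types of cKO mice. It lies on chromosome 16 at 95702407 to 95721049 in 11 of 12 tables. In TFH cells Ets2 was at 10.1, 11.02 and 8.63 FPKM in WT libraries and at 19.7, 26.4 and 30.3 FPKM in cKO libraries. In Non-TFH cells it was at 15.1, 18.0 and 15.3 FPKM in WT libraries and at 35.6, 31.8 and 36.9 FPKM in cKO libraries. In each cell type every cKO library was above every WT library. The change was 1.26 (SE 0.157, adjusted p = 1.1e-04) in TFH cells, a ratio of 2.57. It was 1.06 (SE 0.157, adjusted p = 4.5e-04) in Non-TFH cells, a ratio of 2.16. Both calls were kept in all 23 alternatives, with adjusted p-values up to 0.0032 and 0.0055. The 2 changes differed by 0.20 (SE 0.222, adjusted p = 0.61).

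Etv5, the PEA3-class member, had the greatest change of the 10 genes in Non-TFH cells and lies on chromosome 16 at 22381313 to 22439570 in 8 of the 11 tables with an entry of its own. In WT Non-TFH cells it was close to the floor, at 0.802, 0.883 and 0.703 FPKM, and in cKO Non-TFH cells at 6.57, 6.61 and 6.98 FPKM. WT TFH cells had 6.07 and 5.93 FPKM in replicates 2 and 3, and cKO TFH cells 15.1, 13.9 and 16.9 FPKM. The groups did not overlap within either cell type. After scaling, the level in cKO Non-TFH cells was just above that in WT TFH cells. As deposited, before that scaling, it was below, with means of 6.17 FPKM in cKO Non-TFH and 6.73 FPKM in WT TFH cells. Etv5 rose by 2.10 (SE 0.135, adjusted p = 1.6e-06) in Non-TFH cells, where the ratio of means was 8.44. It rose by 1.22 (SE 0.151, adjusted p = 1.7e-04) in TFH cells, where the ratio was 2.55. The call was kept in all 23 alternatives in each cell type. The change was smaller in TFH than in Non-TFH cells by 0.89 on the log2 scale (a difference of -0.89, SE 0.202, adjusted p = 0.012). The difference in change was no longer called under quantile normalization (-0.52, adjusted p = 0.12) or with a replicate block (-0.89, adjusted p = 0.13). That block pairs same-numbered TFH and Non-TFH libraries of a genotype, a pairing that the labels do not give. In cKO mice Ddx3y, given above, differed within every such pair.

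Ets2 and Etv5 were the genes called higher in both cell types, and the sequences just before their transcription starts are shown beside that of Gabpa, which was called in no comparison, to let their GGAA cores be seen side by side. They come from RefSeq (GRCm38.p6, the mm10 assembly), run from 250 bases before to 50 bases after an annotated start, and read 5′ to 3′ along the gene. Capitals mark GGAA or its reverse complement TTCC, the core that ETS proteins bind. The windows are chr16:95702157-95702456 on the plus strand for Ets2, chr16:22439521-22439820 and chr16:22438319-22438618 on the minus strand for the 2 starts of Etv5, and chr16:84834874-84835173 on the plus strand for Gabpa. The table held 8 of the 10 genes, without Ets1 and Fli1.
Ets2: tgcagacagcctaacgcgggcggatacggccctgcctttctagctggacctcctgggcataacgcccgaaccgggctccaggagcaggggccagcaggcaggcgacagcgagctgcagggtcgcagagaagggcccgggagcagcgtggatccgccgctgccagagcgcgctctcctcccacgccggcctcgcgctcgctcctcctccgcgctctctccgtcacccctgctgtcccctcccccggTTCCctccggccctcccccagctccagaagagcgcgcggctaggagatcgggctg
Etv5 start 1: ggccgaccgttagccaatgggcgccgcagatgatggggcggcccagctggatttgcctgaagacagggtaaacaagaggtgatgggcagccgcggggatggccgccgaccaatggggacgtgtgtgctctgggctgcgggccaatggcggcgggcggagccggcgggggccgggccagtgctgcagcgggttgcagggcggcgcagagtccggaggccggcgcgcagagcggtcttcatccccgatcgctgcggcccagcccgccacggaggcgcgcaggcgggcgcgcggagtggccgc
Etv5 start 2: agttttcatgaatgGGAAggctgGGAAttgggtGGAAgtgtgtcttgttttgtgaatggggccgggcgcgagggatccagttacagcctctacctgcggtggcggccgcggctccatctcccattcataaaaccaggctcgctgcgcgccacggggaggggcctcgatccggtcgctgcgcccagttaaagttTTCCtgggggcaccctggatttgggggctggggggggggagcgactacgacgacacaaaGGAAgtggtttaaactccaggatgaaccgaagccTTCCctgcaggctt
Gabpa: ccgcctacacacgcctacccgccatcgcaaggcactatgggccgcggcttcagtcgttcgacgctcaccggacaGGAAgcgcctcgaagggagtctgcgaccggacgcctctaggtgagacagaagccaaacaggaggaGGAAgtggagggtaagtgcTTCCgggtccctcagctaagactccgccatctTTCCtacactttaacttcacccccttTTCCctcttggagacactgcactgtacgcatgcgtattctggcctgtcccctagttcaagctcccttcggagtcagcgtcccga
The Ets2 window held 1 core, the first Etv5 window 0, the second Etv5 window 6 and the Gabpa window 5, against a median of 3 over 32851 promoter windows of the same length, of which 96.0% held at least 1. The first Etv5 start is where the deposited Etv5 locus ends, and the tables do not separate transcripts of the 2 starts. The longer motif CCGGAA, searched on both strands and containing the core, was found only in Gabpa among the windows of the 8 genes, on the reverse strand with its first base 92 before the start (-92). It was present in 14.9% of all windows. These matches describe letters and not binding.

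Elf1, an activator of T cell receptor and cytokine receptor genes and the second most abundant member, changed in 1 cell type. It lies on chromosome 14 at 79481194 to 79582491 in all 12 tables. In Non-TFH cells it stood at 98.8, 117 and 87.7 FPKM in WT libraries and at 184, 181 and 172 FPKM in cKO libraries, and the ranges did not overlap. It rose by 0.83 there (SE 0.116, adjusted p = 3.2e-04), a ratio of 1.77, and the call was kept in all 23 alternatives. In TFH cells it was at 90.7, 70.0 and 78.9 FPKM in WT libraries and at 66.8, 62.2 and 62.6 FPKM in cKO libraries. All cKO TFH libraries were below the WT TFH libraries, but the difference of -0.31 (SE 0.116) had an adjusted p of 0.063. It was called without WT Non-TFH replicate 2 (adjusted p = 0.042), without WT TFH replicate 2 (-0.40, adjusted p = 0.028) and under quantile normalization (-0.39, adjusted p = 0.024). The difference between the changes in the 2 cell types was -1.14 (SE 0.164, adjusted p = 6.8e-04), called in all 22 alternatives, and 17.4% of all features were called in that test, 10.6% lower and 6.88% higher. Of the 10 genes, Elf1 and Etv5 were called there.

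As a share of the summed ETS transcripts, Elf1 went from 14.6% ± 2.49 (n = 2) in WT Non-TFH cells to 21.7% ± 0.288 (n = 3) in cKO Non-TFH cells. In TFH cells its share was 18.5% ± 1.46 (n = 2) in WT and 13.7% ± 1.19 (n = 3) in cKO libraries. Ets2 had 2.37% ± 0.203 (n = 2) and 4.22% ± 0.367 (n = 3) in WT and cKO Non-TFH cells, and 2.44% ± 0.431 (n = 2) and 5.40% ± 0.899 (n = 3) in WT and cKO TFH cells. These shares did not overlap between genotypes, and they move with every other member in the sum.

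Fli1, whose product binds the same core and which neighbours Ets1 on chromosome 9, rose in TFH cells. WT TFH libraries had 24.6, 30.6 and 31.0 FPKM, and cKO TFH libraries 42.9, 39.98 and 46.1 FPKM, with no overlap. The change was 0.57 (SE 0.105, adjusted p = 0.0016), a ratio of 1.498, and was called in all 23 alternatives. In Non-TFH cells Fli1 was at 30.1, 28.5 and 28.6 FPKM in WT libraries and at 35.8, 34.4 and 34.4 FPKM in cKO libraries. Those ranges did not overlap either, as for 52.1% of all tested features in Non-TFH cells and 37.9% in TFH cells, and the difference of 0.26 had an adjusted p of 0.11. It was called in 4 alternatives, among them without WT TFH replicate 1 (adjusted p = 0.045). The 2 changes differed by 0.31 (SE 0.148, adjusted p = 0.18), so a difference between the cell types was not shown for Fli1.

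The remaining members were called in neither genotype comparison. Elf4, X-linked and a paralogue of Elf1, was at 52.0 and 51.6 FPKM in WT Non-TFH replicates 2 and 3 and at 63.6, 63.3 and 72.9 FPKM in cKO Non-TFH cells, a difference of 0.36 (SE 0.155, adjusted p = 0.15) between ranges that did not overlap. Etv6, a repressor with a pointed domain, was at 7.08, 7.08 and 7.25 FPKM in WT Non-TFH cells and at 9.82, 8.75 and 9.26 FPKM in cKO Non-TFH cells, a difference of 0.34 (SE 0.141, adjusted p = 0.13). Etv3, a repressor of proliferation genes in macrophages, was at 31.9, 32.5 and 30.5 FPKM in WT Non-TFH cells and at 26.1, 24.7 and 27.6 FPKM in cKO Non-TFH cells, a difference of -0.27 (SE 0.278, adjusted p = 0.60). With only the Non-TFH libraries in the fit, whose spread is smaller than that of TFH libraries, Fli1, Elf4, Etv3 and Etv6 were called too, so that the count of ETS genes in that comparison was 7 rather than 3 while the count over all features was 3633 rather than 2258. The median coefficient of variation of features at 5 FPKM or more was 7.29% in WT Non-TFH cells and 7.72% in cKO Non-TFH cells, against 16.8% in WT TFH and 13.7% in cKO TFH cells.

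In TFH cells Elf4 was at 9.37, 12.5 and 13.7 FPKM in WT libraries and at 12.7, 14.1 and 11.8 FPKM in cKO libraries (0.12, SE 0.138, adjusted p = 0.55). Etv6 was at 9.53, 10.02 and 8.73 FPKM in WT TFH and at 7.56, 9.64 and 6.59 FPKM in cKO TFH libraries (-0.24, SE 0.141, adjusted p = 0.23). The ranges of Elf4 and of Etv6 overlapped, and so did those of Etv3, whose difference was -0.52 (SE 0.278, adjusted p = 0.18). Etv3 was called lower without WT TFH replicate 3 (-0.83, adjusted p = 0.024) or cKO TFH replicate 2 (-0.80, adjusted p = 0.043). The Etv6 changes of the 2 cell types differed by -0.57 (adjusted p = 0.073), a difference called without cKO TFH replicate 2 (-0.70, adjusted p = 0.02). Gabpa, the DNA-binding subunit of the GABP complex, had means of 24.5 ± 3.16 (SD, n = 3) and 23.0 ± 1.21 FPKM in WT and cKO Non-TFH cells. Its means were 19.4 ± 0.992 and 18.7 ± 3.24 FPKM in WT and cKO TFH cells. The Gabpa difference between genotypes was -0.08 (SE 0.138, adjusted p = 0.78) in Non-TFH cells and -0.06 (SE 0.138, adjusted p = 0.78) in TFH cells. Gabpb1, which encodes the partner subunit that carries the activation domain, was called in neither of these comparisons (adjusted p = 0.38 and 0.91).

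The second comparison asked how TFH and Non-TFH cells differed in each genotype. In WT mice 5 of the 10 genes were lower in TFH cells (Ets1, Ets2, Elf1, Elf4 and Etv3) and 2 were higher (Etv5 and Etv6), where 67.4% of all tested features were called, 35.3% higher and 32.1% lower. In cKO mice the same 5 were lower and 2 were higher (Fli1 and Etv5), where 67.1% of all features were called, 33.5% higher and 33.6% lower. The members' median difference was -0.49 in WT and -0.56 in cKO mice, against 0.05 and 0.02 for all features. These values are relative to the scaling between libraries. Without it the median feature was higher in TFH cells by 0.37 in WT and 0.27 in cKO mice. Macrophage and B cell transcripts, given above, were higher in the TFH libraries of both genotypes, and in bulk RNA fewer cells of a type cannot be told apart from less RNA per cell.

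**Figure D4:**
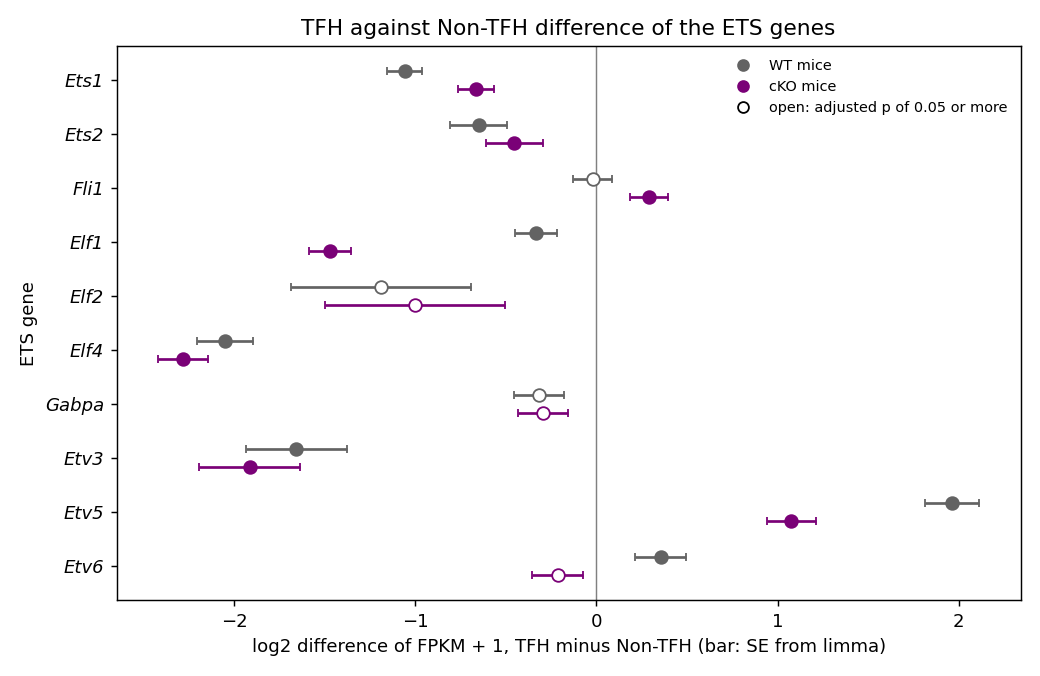
Difference of each ETS gene between TFH and Non-TFH libraries (x axis, log2 of FPKM + 1; bars, SE from limma) in WT and cKO mice, with filled points for adjusted p under 0.05. Elf4 and Etv3 lie farthest to the left in both genotypes, and Etv5 lies farthest to the right.

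Elf4 had the lowest TFH level relative to Non-TFH cells. It was 4.37-fold lower in TFH cells of WT mice (-2.05, SE 0.155, adjusted p = 6.6e-07) and 5.17-fold lower in those of cKO mice (-2.29, SE 0.138, adjusted p = 1.2e-07). Its highest TFH library, at 14.1 FPKM, was far below its lowest Non-TFH library, at 51.6 FPKM. Etv3 was at 12.5, 11.3 and 5.67 FPKM in WT TFH cells, 3.23-fold below WT Non-TFH cells (-1.66, SE 0.278, adjusted p = 2.2e-04). In cKO TFH cells Etv3 was at 4.11, 9.59 and 5.89 FPKM, 4.01-fold below cKO Non-TFH cells (-1.92, SE 0.278, adjusted p = 7.3e-05). The Elf4 and Etv3 calls were kept in all 23 alternatives in both genotypes.

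Ets1 stood 2.08-fold below its Non-TFH level in TFH cells of WT mice (-1.06, SE 0.099, adjusted p = 1.8e-06) and 1.59-fold below it in cKO mice (-0.67, SE 0.099, adjusted p = 8.6e-05). Its TFH and Non-TFH libraries did not overlap in either genotype, as was so for 71.9% of all features in WT and 73.7% in cKO mice. Both calls were kept in all 23 alternatives. Ets2 was lower in TFH cells by 1.63-fold in WT mice (-0.65, adjusted p = 0.003) and by 1.37-fold in cKO mice (-0.45, adjusted p = 0.023). The Ets2 call in cKO mice was lost without cKO TFH replicate 1 (-0.28, adjusted p = 0.097) and without cKO Non-TFH replicate 1 (adjusted p = 0.064) or 3 (adjusted p = 0.075). Without scaling between libraries neither Ets2 call held (-0.31, adjusted p = 0.099 in WT mice, and -0.16, adjusted p = 0.37 in cKO mice).

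Elf1 differed little between the cell types in WT mice and strongly in cKO mice. It was 2.80-fold lower in cKO TFH than in cKO Non-TFH cells (-1.47, SE 0.116, adjusted p = 4.5e-07), with no overlap, in all 23 alternatives. In WT mice the difference was -0.34 (SE 0.116, adjusted p = 0.023) between ranges that overlapped. The WT call was lost in 7 of 23 alternatives, among them without WT Non-TFH replicate 2 (-0.23, adjusted p = 0.11), WT TFH replicate 2 (-0.24, adjusted p = 0.10) or WT TFH replicate 3 (-0.32, adjusted p = 0.057), and its sign turned without scaling (0.03, adjusted p = 0.81).

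Etv5 was the member with the clearest TFH excess. It was 7.54-fold higher in TFH than in Non-TFH cells of WT mice (1.96, SE 0.151, adjusted p = 7.6e-07, n = 2 WT TFH libraries, limma) and 2.28-fold higher in cKO mice (1.08, SE 0.135, adjusted p = 3.6e-05). Both were called in every alternative that gave a value. Fli1 was level between the cell types in WT mice (29.0 ± 0.898 FPKM in Non-TFH and 28.7 ± 3.55 in TFH cells, a difference of -0.02, adjusted p = 0.87), and without scaling that difference turned to 0.34 (adjusted p = 0.012). In cKO mice Fli1 was higher in TFH cells (0.29, SE 0.105, adjusted p = 0.027), a call lost in 6 of 23 alternatives, among them without cKO Non-TFH replicate 2 or 3 (adjusted p = 0.072 and 0.069) or cKO TFH replicate 3 (adjusted p = 0.083). Etv6 was higher in TFH cells of WT mice (0.36, SE 0.141, adjusted p = 0.041). That call was lost in 10 of 23 alternatives, 8 of which leave out a library: any WT or cKO Non-TFH library, or WT TFH replicate 1 or 2 (adjusted p up to 0.098). In cKO mice Etv6 differed by -0.22 (adjusted p = 0.20), a difference called without cKO TFH replicate 2 (-0.34, adjusted p = 0.038). Gabpa differed by -0.32 (adjusted p = 0.062) in WT and by -0.30 (adjusted p = 0.077) in cKO mice, and its ranges did not overlap in either genotype. It was called in WT mice without WT Non-TFH replicate 3 (adjusted p = 0.034) or cKO TFH replicate 2 (adjusted p = 0.03), and in cKO mice without cKO TFH replicate 3 (adjusted p = 0.037).

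Elf2, of the same subfamily as Elf1 and Elf4, was called in no comparison and varied widely between libraries of 1 group, except in cKO Non-TFH cells. It was at 5.94, 27.8 and 18.4 FPKM in WT TFH cells and at 33.4, 13.5 and 21.3 FPKM in cKO TFH cells. WT Non-TFH libraries had 44.3, 22.9 and 41.9 FPKM, and cKO Non-TFH libraries 40.4, 46.1 and 44.8 FPKM. In FPKM as deposited, before scaling between libraries, the highest WT TFH library was 4.58 times the lowest. On these deposited values the coefficient of variation of Elf2 was 62.3% in WT TFH, 43.3% in cKO TFH, 33.3% in WT Non-TFH and 7.15% in cKO Non-TFH cells, while the confidence bounds beside each FPKM correspond to 2.58% to 4.91%. In both TFH groups the bounds of all 3 pairs of libraries lay apart. Etv3 varied in a like way in TFH cells, with a coefficient of variation of 37.1% in WT and 43.4% in cKO libraries, and its cKO TFH replicate 1 had bounds from 1.97 to 7.26 FPKM around 4.62 as deposited. The Elf2 difference between genotypes had a standard error of 0.498, so that a change of the size called for Fli1 was not detectable at this spread. Between the cell types the Elf2 difference was -1.19 (adjusted p = 0.056) in WT and -1.001 (adjusted p = 0.10) in cKO mice. It was called in WT mice without WT TFH replicate 2 (-1.62, adjusted p = 0.014) or WT Non-TFH replicate 2 (-1.49, adjusted p = 0.038), and in cKO mice without WT TFH replicate 1 (adjusted p = 0.02). Other alternatives that called it in WT mice were quantile normalization (adjusted p = 0.043), no variance trend or robust moderation (adjusted p = 0.049) and single-gene entries only (adjusted p = 0.046). In cKO mice it was also called with only the compared groups in the fit (adjusted p = 0.017).

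**Figure D5:**
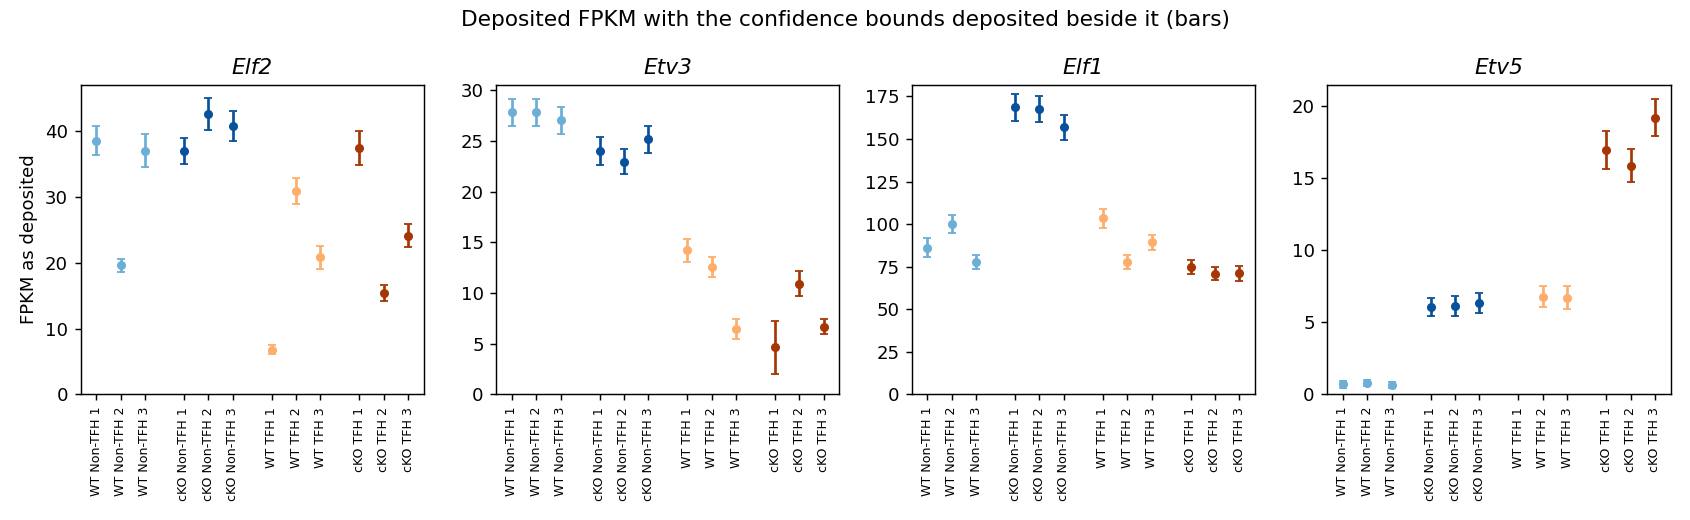
FPKM as deposited (y axis from 0) with the deposited confidence bounds as bars for Elf2, Etv3, Elf1 and Etv5 in each library (x axis, group and replicate). Elf2 libraries of 1 TFH group lie far outside each other's bounds, whereas Etv5 libraries of 1 group lie close together.

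Across libraries the members did not follow 1 pattern. Over the 11 libraries that list Elf4, the levels of Ets1 and Elf4 had a Pearson r of 0.94, and Fli1 and Etv5 had 0.88 over the 11 libraries that list Etv5. Etv3 and Etv5 had -0.75. These values describe 4 groups of libraries that share a sorting gate and a genotype, and they carry no test. Among 9455 features the 3 closest to each gene's pattern were Alyref, Kat2a and Sap30l for Ets1 (r of 0.99), Sema4f, Cd226 and Oasl2 for Ets2 (0.97 to 0.98), and Dcaf17, Anxa2 and Gm3500 for Etv5 (0.99). For Elf1 they were Irs2, Cacnb3 and Sidt1 (0.96 to 0.98), and for Fli1 they were Usp39, Nfe2 and Chrna9 (0.94). For Elf4 they were Peli1, Kdm7a and Sbf1 (0.995 to 0.996), and for Etv3 they were Map3k1, Fmnl3 and Zcchc11 (0.98). The closest features reached 0.96 for Elf2 (Prune), 0.90 for Gabpa (Lnp) and 0.88 for Etv6 (Nt5c2).

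Of 16 other ETS genes, 15 had an entry of their own and 7 were high enough to be tested. In TFH cells of cKO mice 2 of the 7 were higher and 3 were lower, where 15.7% of all features were called higher and 15.0% lower, with a median change of 0.43 against 0.04 for all features. In Non-TFH cells 3 were higher and 0 were lower, where 11.8% of all features were called higher and 8.56% lower, with a median of 0.30 against 0.03. Etv4, the PEA3-class relative of Etv5, was at 0.307, 0.0569 and 0.0902 FPKM in WT TFH cells and at 2.27, 1.53 and 1.47 FPKM in cKO TFH cells, a rise of 1.25 (SE 0.208, adjusted p = 8.9e-04). In Non-TFH cells Etv4 was listed at 0, 0 and 0.0332 FPKM in WT libraries and at 1.33, 0.902 and 0.425 FPKM in cKO libraries, a rise of 0.87 (SE 0.208, adjusted p = 0.011) that was not called without cKO Non-TFH replicate 1 (0.71, adjusted p = 0.063). Etv4 thus moved the same way as Etv5 in both cell types, from a level under 0.31 FPKM. Erf, an ERK-regulated ETS repressor, went from 12.2 ± 4.01 to 25.6 ± 8.53 FPKM in Non-TFH cells (1.003, SE 0.279, adjusted p = 0.024, n = 3 a group, limma), a call lost in 6 of 23 alternatives, among them without WT Non-TFH replicate 1 or cKO Non-TFH replicate 2 (adjusted p = 0.11 each) or 3 (adjusted p = 0.10). Elk3, a ternary complex factor, fell in TFH cells from 11.4 ± 1.99 to 7.31 ± 1.31 FPKM (-0.57, adjusted p = 0.015), a call lost in 3 of 23 alternatives: without cKO TFH replicate 1 (-0.44, adjusted p = 0.05), with no filter (adjusted p = 0.056) and with only the compared groups (adjusted p = 0.11).

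The SPI subfamily of macrophages and B cells changed differently. Spic, a factor of red pulp macrophages, was at 52.8, 97.5 and 81.8 FPKM in WT TFH cells and fell by 3.14 to 10.97, 5.81 and 6.88 FPKM in cKO TFH cells (SE 0.266, adjusted p = 7.7e-06). Spi1, which encodes PU.1, fell by 1.31 in TFH cells, from 13.4 ± 2.44 to 4.79 ± 0.680 FPKM (adjusted p = 3.5e-04), and rose by 1.01 in Non-TFH cells, from 0.619 ± 0.190 to 2.27 ± 0.509 FPKM (adjusted p = 0.0025). Both moved in the direction of the macrophage marker sum without Lyz2, in each cell type where they were called, and the part of those cells was not tested. Spib, a factor of B cells and plasmacytoid dendritic cells, went the other way from the B cell marker sum and was higher in cKO TFH cells (1.26, SE 0.288, adjusted p = 0.0063).

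Genes outside the family that answer to ERK signalling, and that accompany Etv4 and Etv5 in other tissues, were read beside Etv5. Of 8 such genes 7 were tested. In Non-TFH cells of cKO mice 4 were higher and 0 were lower, against 11.8% and 8.56% of all features, with a median change of 1.34. In TFH cells 1 was higher and 1 was lower, against 15.7% and 15.0% of all features, with a median of 0.40. Dusp4, an ERK phosphatase, went from 0.671 ± 0.230 to 15.6 ± 1.67 FPKM in Non-TFH cells (3.31, SE 0.197, adjusted p = 3.9e-07) and from 4.31 ± 0.574 to 18.7 ± 4.91 FPKM in TFH cells (1.86, SE 0.197, adjusted p = 3.6e-05). Its change was smaller in TFH cells, as that of Etv5 was (-1.45, SE 0.278, adjusted p = 0.0038). Spred1, an inhibitor of Ras to Raf signalling, rose from 1.93 ± 0.272 to 8.82 ± 0.290 FPKM in Non-TFH cells (1.75, adjusted p = 3.6e-04). Another ERK phosphatase, Dusp6, was at 65.0 ± 5.07 FPKM in WT TFH and 47.1 ± 1.19 FPKM in cKO TFH cells, where it fell by 0.45 (SE 0.120, adjusted p = 0.014), a call lost with no filter (adjusted p = 0.052) and with array weights (adjusted p = 0.10). Dusp5 rose in Non-TFH cells from 11.3 ± 1.22 to 31.0 ± 4.13 FPKM (1.37, adjusted p = 0.0019). Spry4 rose there too, from 0.0255 FPKM in WT to 1.59 FPKM in cKO libraries (1.34, adjusted p = 1.7e-04). In TFH cells Dusp5 (-0.58, adjusted p = 0.095), Spry4 (0.40, adjusted p = 0.11) and Spry1 (-0.39, adjusted p = 0.14) were not called. Of 3 CD8 T and NK cell markers, Cd8b1 was at 95.7 to 106 FPKM in cKO and 9.86 to 14.6 in WT Non-TFH libraries, and at 33.9 to 44.1 in cKO and 6.10 to 10.3 in WT TFH libraries. In Non-TFH libraries of both genotypes Cd8a was at 0.308 FPKM or less and Ncr1 at 1.98 FPKM or less, and neither was called. In TFH cells of cKO mice all 3 were called higher, where 15.7% of all features were called higher. The part of such cells in these changes was not tested.

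Partners of ETS proteins changed in both directions. Of 18 listed, 15 were tested. In TFH cells of cKO mice 2 were higher and 6 were lower (median -0.30), where 30.7% of all features were called. In Non-TFH cells 1 was higher and 3 were lower (median -0.18), where 20.3% of all features were called. Runx2, a Runt factor, rose in TFH cells from 0.533 ± 0.0892 to 1.51 ± 0.292 FPKM (0.70, adjusted p = 0.0056) and in Non-TFH cells from 0.332 ± 0.0353 to 1.45 ± 0.200 FPKM (0.88, adjusted p = 0.0019). Runx1, which binds DNA together with Ets1, fell in Non-TFH cells from 18.0 ± 0.109 to 13.1 ± 0.701 FPKM (-0.42, adjusted p = 0.015), a call lost without any one of the WT Non-TFH libraries or cKO Non-TFH replicate 1 or 3 (adjusted p up to 0.068). Runx3 fell in TFH cells from 5.22 ± 0.462 to 2.29 ± 0.949 FPKM (-0.96, adjusted p = 0.0032). Fos, Junb and Jun fell more there. Fos went from 604 to 133 FPKM (-2.21, adjusted p = 0.016) and Junb from 916 to 250 FPKM (-1.87, adjusted p = 0.0059). The Jun call (-1.79, adjusted p = 0.048) was lost in 14 of 23 alternatives. In Non-TFH cells none of these was called, and cKO replicate 1 stood apart, with Fos at 774 FPKM against 231 and 131 in replicates 2 and 3. Nfatc2, a calcium-regulated factor, fell by 1.31 in Non-TFH cells (from 16.0 ± 0.0957 to 5.84 ± 0.0561 FPKM, adjusted p = 5.9e-06) and fell by 0.55 in TFH cells (adjusted p = 0.0031).

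Genes with ETS-regulated promoters or enhancers in lymphocytes were also split. Of 22 listed, 20 had an entry of their own and 19 were tested. In TFH cells of cKO mice 4 were higher and 8 were lower, against 15.7% and 15.0% of all features, with a median of -0.42. In Non-TFH cells 6 were higher and 4 were lower, against 11.8% and 8.56% of all features, with a median of -0.12. Il7r, the interleukin 7 receptor chain, fell in both cell types by nearly the same amount. It fell by 1.59 in TFH cells (39.7 ± 9.97 to 12.8 ± 5.21 FPKM, adjusted p = 3.6e-04) and fell by 1.58 in Non-TFH cells (287 ± 16.4 to 95.7 ± 13.7 FPKM, adjusted p = 4.4e-04). Thy1, a T cell surface protein, fell by 3.68 in TFH cells (32.5 ± 8.32 to 1.59 ± 0.326 FPKM, adjusted p = 5.5e-08) and fell by 3.32 in Non-TFH cells (298 ± 1.61 to 29.0 ± 2.07 FPKM, adjusted p = 7.5e-08). Cd247, the CD3 zeta chain and a known Elf1 target, rose in both cell types. It rose by 1.26 in TFH cells (adjusted p = 2.9e-07) and by 1.22 in Non-TFH cells (adjusted p = 2.2e-07). Elf1 itself was called higher in Non-TFH cells alone, and its part in the Cd247 change was not tested. Il2rb, the interleukin 2 receptor beta chain, fell by 0.92 in TFH cells (176 ± 14.1 to 92.7 ± 2.64 FPKM, adjusted p = 9.8e-06) and rose by 1.57 in Non-TFH cells (30.0 ± 1.20 to 90.9 ± 2.08 FPKM, adjusted p = 1.4e-07).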

How the data were processed

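The deposited values are FPKM, with lower and upper confidence bounds also in FPKM, in 1 Cufflinks gene tracking table a library, per the file headers. The submitters' processing notes name Cufflinks, Cuffdiff, TopHat and TopHat2, Bowtie and Bowtie2, FastQC, cutadapt and the build mm10. Their versions, roles and parameters are not given in the sources used. The tables hold no counts, so depth was estimated from the bounds, which were taken to span 4 SD, at unnamed loci.

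Symbols with an entry of their own in at least 2 libraries of each group were features, and others were joint features. Features from 24 symbols turned into dates were left out. FPKM were scaled by median ratios over the 7161 features that reached 1 FPKM in all 12 libraries, which gave factors of 0.857 to 1.14. A pseudocount of 1 was added. limma 3.58.1 (R 4.3.3, variance trend, robust moderation) was fitted with 1 mean a group, adjusting by Benjamini-Hochberg. Sums, shares and correlations were computed with pandas 2.3.3.

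All 10 members are named. Of the lists, genes that passed a genotype comparison could be named. The members and lists were chosen with earlier results of these data known. Alternatives were other pseudocounts, filters, scalings, weights, moderation, entries, a replicate block and leaving out each library.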

Additional observations from a re-analysis of the deposited data

Results flagged for a closer look

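For 2 of the 10 ETS genes the change between cKO and WT libraries was not the same size in TFH as in Non-TFH cells, by the interaction term of limma's fit, in which 17.4% of all tested features were called. For Elf1 the TFH change minus the Non-TFH change was -1.14 (adjusted p = 6.8e-04): it rose in Non-TFH cells, and in TFH cells the difference of -0.31 was not called. For Etv5 it was -0.89 (adjusted p = 0.012): it rose in both cell types, by less in TFH cells, where n = 2 for WT in limma's fit. The Etv5 difference was not called under quantile normalization (-0.52, adjusted p = 0.12) or with the replicate block (adjusted p = 0.13 in limma's fit).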

How the results depend on the processing

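Over all alternatives the 10 ETS genes gave 1139 values, of which 1073 stayed on their side of the threshold, 35 lost a call, 29 gained one and 2 turned direction. In TFH cells of cKO mice 3415 features were called. With only the compared groups this was 2200, and with array weights 2268. In Non-TFH cells 2258 features and 3 ETS genes were called. With only the compared groups these were 3633 and 7, and with array weights 4103 and 6. In the test of the difference between cell types 1937 features and 2 ETS genes were called. With no filter on low values 1163 features were called, and under quantile normalization and with the replicate block 1 ETS gene was called. Deviations of same-numbered libraries from their group means had correlations near 0. Such correlations cannot show whether same-numbered libraries came from the same mouse. Ddx3y was at 40.4 to 44.5 FPKM in cKO Non-TFH libraries and at 0 in all cKO TFH libraries. Same-numbered cKO libraries thus differed in this mark of sex, which RNA of the same mice would not. The replicate block pairs them in the tests that compare cell types. For WT mice the pairing was not tested. The ratio of Ets1 in cKO to WT Non-TFH cells was 0.983, and 1.04 without scaling and 0.934 under quantile normalization.

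Leaving out 1 library at a time gave 3 to 5 ETS genes and 2823 to 3214 features in TFH cells, 3 to 4 and 1622 to 2453 in Non-TFH cells, 6 to 8 and 6910 to 7544 between WT TFH and Non-TFH cells, 5 to 8 and 6845 to 7629 between those of cKO mice, and 2 to 3 and 1472 to 1967 for the difference. The Ets1 ratio ran from 1.21 to 1.37 in TFH and from 0.967 to 1.008 in Non-TFH cells. Directions turned between TFH and Non-TFH cells without scaling for Fli1 (0.34), Elf1 (0.033) and Cd247 (0.29) in WT mice and for Runx1 (0.015) and Cd247 (0.26) in cKO mice, and under quantile normalization for Zap70 (-0.36) in WT and Il2rb (-0.33) in cKO mice. The cause of these changes was not tested. Low levels are imprecise: the deposited bounds of Etv5 in WT Non-TFH cells correspond to a coefficient of variation of 14.3% to 17.7%.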
